A study of Homo sapiens with 3 samples.

Results

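The genes described here are 35 chaperone genes of the cytosol and the mitochondria, together with HSF1, the transcription factor that switches many of them on after heat, which is 1 of the 35. They were taken by gene name from the arrays, out of 17061 gene names that could be measured. The list was drawn up after HSP90AA1 had been seen to be higher in these same arrays, so the log2 ratios below chose the list. They are given as a description, with no test of the members as a set. Calls of single members come from a fit over all genes and are no evidence about the list. The study silenced SPINK1, a secreted trypsin inhibitor, in 22RV1 cells, an established SPINK1-positive prostate cancer line, with lentiviral short hairpin RNAs. Cells with hairpin 1, 2 or 3 (22RV1-shSPINK1) were each compared with 22RV1 cells that carried a scrambled hairpin (22RV1-shSCRM) on 1 two-color array, 3 arrays in all. All lines were stably transduced and were kept in RPMI-1640 with fetal bovine serum and puromycin, which the control line shared. No array had swapped dyes: shSPINK1 RNA was always in Cy5 and shSCRM RNA in Cy3, so the dye and the hairpin cannot be told apart as sources of a ratio. In bulk RNA, fewer cells of a kind and less RNA per cell cannot be told apart either.

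Chaperones bind proteins that are not yet folded or have lost their fold, and release them in cycles driven by ATP. HSP70 proteins take up short unfolded stretches handed to them by J-domain proteins, nucleotide exchange factors such as the HSP110 proteins make them let go, and HSP90 proteins then finish the folding of clients that include kinases and the androgen receptor. The chaperonins are barrels that enclose a protein while it folds, TRiC in the cytosol and the HSPD1 and HSPE1 complex in mitochondria. In the heat shock response HSF1 binds promoters with repeats of a short element, GAA and its reverse complement TTC in turn, 2 bases apart.

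Each value is the log2 ratio of shSPINK1 over shSCRM on 1 array, after background correction with an offset of 50 and loess normalization within the array, and values are listed in the order of hairpins 1, 2 and 3. Of 60901 gene spots, 46.8%, 41.3% and 41.3% were well above background in Cy5 and 42.6%, 38.8% and 39.0% in Cy3, and 0 were saturated. Probes that passed the scanner's background limit in Cy5 or in Cy3 on all 3 arrays were kept, and the brightest of them stood for the gene. The silenced gene bore out the labels: SPINK1 had log2 ratios of -3.71, -3.65 and -3.89, on average -3.75 ± 0.12 (SD, n = 3 arrays). Over all genes, limma gave it a Benjamini-Hochberg adjusted p of 6.07e-07. All 10 markers of prostate epithelial cells were measured, with 16 of their 17 probes kept. Of 7 markers of blood, endothelial and fibroblast cells on the array, 4 had a kept probe (PTPRC, VWF, COL1A1 and DCN), with 4 of 16 probes kept, and the part of such signal in the results was not tested. The same shSCRM line was the control throughout, so the spread between control cultures is in none of the errors, and no source states that the arrays of the 3 hairpins came from more than 1 culture each.

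The heat shock element is shown first, because no log2 ratio enters it. The genes were listed by name as heat shock chaperones, so the share with the element is no independent support for the list. Promoters of RefSeq (GRCh38.p14), from 250 bases before to 50 bases after a start site, were found for 32 of the 35 genes, and FKBP4, HSF1 and HSPA14 had no entry. They were searched on both strands for 3 units in a row, GAANNTTCNNGAA or TTCNNGAANNTTC, and for the shorter forms GAANNTTC and TTCNNGAA, which lie within the longer ones and read the same on both strands. The element of 3 units was present for 7 of the 32 genes (21.9%), against 0.608% of 27305 genes in the whole table, and these were HSP90AA1, HSP90AB1, HSPA8, HSPD1, DNAJA1, DNAJB6 and CHORDC1. Another 12 genes held the form of 2 units only, among them HSPA1A and HSPA1B, and together 59.4% of the genes with an entry held at least 2 units, against 16.2% in the whole table. Among 69 other chaperone genes with an entry, set by family and described last, 1.45% held 3 units and 18.8% at least 2. No stretch is printed for DNAJA1, whose element began 3 bases after a start site, or for HSPD1, whose element lay before an alternative start site. The stretches below show the element of 3 units nearest to a start site, and HSPA1A and HSPA1B were added as the stress-inducible HSP70 genes. Each is 60 bases, 5′ to 3′ on the strand of the gene and upstream of its start. Capitals mark the elements of 3 units, and in HSPA1A and HSPA1B the form of 2 units, while further matches of 2 units in the other stretches are left in lower case.
HSP90AA1, chr14:102087093-102087152, minus strand: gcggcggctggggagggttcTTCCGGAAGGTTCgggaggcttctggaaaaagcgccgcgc
HSP90AB1, chr6:44247811-44247870, plus strand: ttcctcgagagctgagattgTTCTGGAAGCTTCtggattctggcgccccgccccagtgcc
HSPA8, chr11:123062152-123062211, minus strand: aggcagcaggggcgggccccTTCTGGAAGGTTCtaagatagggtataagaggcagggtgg
CHORDC1, chr11:90223060-90223119, minus strand: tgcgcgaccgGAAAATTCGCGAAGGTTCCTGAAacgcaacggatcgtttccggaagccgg
DNAJB6, chr7:157336853-157336912, plus strand: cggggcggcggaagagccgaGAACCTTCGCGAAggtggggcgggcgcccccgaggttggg
HSPA1A, chr6:31815417-31815476, plus strand: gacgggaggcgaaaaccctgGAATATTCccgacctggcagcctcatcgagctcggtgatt
HSPA1B, chr6:31827613-31827672, plus strand: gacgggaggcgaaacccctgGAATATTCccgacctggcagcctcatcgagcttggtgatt
The element began 88 bases before the nearer start site in HSP90AA1, 112 in HSP90AB1, 55 in HSPA8 and 131 in DNAJB6, while in CHORDC1 the matches overlapped. A match is a string of letters and not a measured site.

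The ranges of log2 ratios of genes with and without the element overlapped. The 7 genes with 3 units had means from -0.13 in HSP90AB1 to 0.69 in HSP90AA1, with a median of 0.14 and 5 of 7 above 0. The 11 measured genes with 2 units only ran from -0.35 in HSPA1A to 0.21 in CCT2, with a median of 0.03. The 13 without a match ran from -0.47 in PTGES3 to 0.45 in HSPE1, with a median of -0.01. A gene counted as holding the element if any of its promoters did. In HSPD1 it lay before an alternative start site, and the promoter of the start nearest to HSPE1 held none. The HSPD1 window with the match (chr2:197499791-197500090) does not overlap that of HSPE1 (chr2:197500129-197500428), so HSPE1 counted as without a match. HSPA1A and HSPA1B, whose stretches are nearly alike, both had a mean below 0, whereas HSP90AA1 was the highest of all members.

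As a group the chaperone genes lay near 0, with a few genes apart at either end. Of the 35 genes, 34 were measured, and HSPB8 was not, since its only probe was well above background on 2 of 3 arrays in each channel. The median of the 34 means was 0.02, beside -0.01 over all 17061 genes, and the medians with hairpins 1, 2 and 3 were 0.01, 0.05 and -0.01. The means of 29 of the 34 lay within 0.25 of 0. The highest were HSP90AA1, HSPE1 and HSPD1, and the lowest were PTGES3, HSPA1A and HSPB1.

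At an adjusted p under 0.05 by limma over all genes, 6 of the 34 measured genes were called higher (HSP90AA1, HSPE1, HSPD1, HSPH1, CCT2 and CDC37), where 4.77% of all genes were, and 3 were called lower (PTGES3, HSPA1A and HSPB1), where 8.7% of all genes were. With a mean beyond 0.5 as well, 1 was higher (HSP90AA1) beside 0.322% of all genes, and no member had a mean under -0.5, beside 0.393% called lower. Without any test, 12 of the 34 were higher on all 3 arrays, beside 21.2% of all genes, and 8 were lower on all 3 arrays, beside 29% of all genes. These counts come from the comparison that the genes were chosen on, and nothing is read from them. Of the 9 calls, 9, 4 and 3 were made again without hairpins 1, 2 and 3, and 0 with the log ratios of Agilent's Feature Extraction software, which corrects background and dye in its own way.

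**Figure D1:**
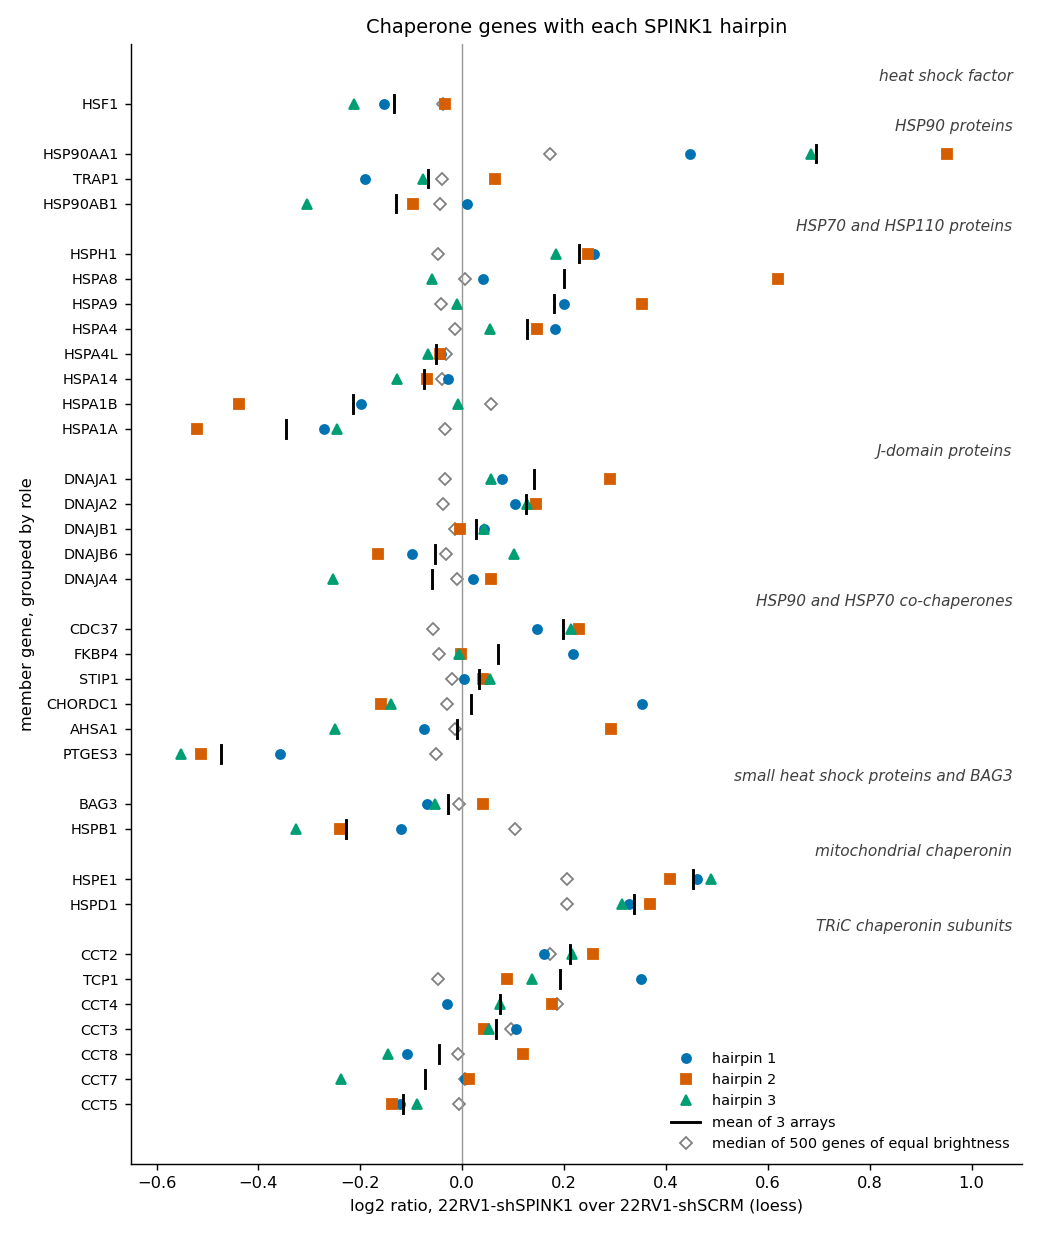
Log2 ratio of 22RV1-shSPINK1 over 22RV1-shSCRM (x axis, after loess) for the 34 measured chaperone genes (y axis), grouped by role. Colored points are the 3 hairpins, black bars their mean and grey diamonds the median of the 500 genes nearest in brightness; HSP90AA1 lies farthest to the right with a mean of 0.69 and PTGES3 farthest to the left with -0.47.

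By the probes that stood for them, the HSP90 proteins differed in sign. HSP90AA1, the stress-inducible cytosolic form, had log2 ratios of 0.45, 0.95 and 0.69, a mean of 0.69 ± 0.25 (SD, n = 3 arrays). All 3 hairpins were above 0, and hairpin 2 was more than 0.5 above hairpin 1. HSP90AB1, the constitutive cytosolic form, had values of 0.01, -0.10 and -0.30 (mean -0.13 ± 0.16), near 0 with hairpin 1 and lowest with hairpin 3. TRAP1, the mitochondrial form, was between them in rank, with a mean of -0.07 ± 0.13 and values on both sides of 0. The coding sequences of HSP90AA1 and HSP90AB1 are closely related, so signal that crosses between their probes cannot be told apart from their own.

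The log2 ratio of HSP90AA1 differed with the place in the transcript where it was read. The array carries 3 probes for it, each of 60 bases, and they are printed because they gave different answers; positions are on the minus strand of chromosome 14 in hg19, as annotated for the array. The brightest probe, at chr14:102547395-102547454, starts at base 3504 of NM_001017963 and is given by its first 30 bases only.
HSP90AA1, brightest probe, first 30 bases: tgtggatggaaatgtagtgctcgagtcaca
HSP90AA1, second probe, chr14:102549453-102549512: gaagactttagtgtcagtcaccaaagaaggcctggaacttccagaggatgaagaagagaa
HSP90AA1, dimmest probe, chr14:102550163-102550222: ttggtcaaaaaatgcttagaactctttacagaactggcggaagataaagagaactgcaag
The brightest probe gave the 0.45, 0.95 and 0.69 above. The second, which starts at base 1803 of NM_005348, gave 0.64, 0.28 and 0.56, a mean of 0.49 ± 0.19, so it was also above 0 with each hairpin but placed hairpin 2 lowest instead of highest. The dimmest, at base 1956 of NM_001017963, gave 0.18, -0.12 and 0.03, a mean of 0.03 ± 0.15. Thus 2 of 3 probes were above 0 on all 3 arrays, while the dimmest lay around 0. The mean over the probes was 0.41, and the value in the deposited table, which averages the spots of a gene, was 0.36. HSP90AB1 had 2 probes that fell on opposite sides of 0, with means of -0.13 and 0.17. The second gave 0.42, 0.08 and 0.03, above 0 with each hairpin, so no direction is given for HSP90AB1.

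Among the HSP70 and HSP110 proteins the inducible HSP70 genes were at the bottom and the HSP110 gene HSPH1 at the top. HSPA1A, a stress-inducible HSP70 gene, had log2 ratios of -0.27, -0.52 and -0.25 (mean -0.35 ± 0.15, SD, n = 3 arrays), below 0 with each hairpin. Its near-identical neighbor HSPA1B had -0.20, -0.44 and -0.01 (mean -0.21 ± 0.21), with the same order of hairpins. The transcripts of this pair share most of their sequence, so their probes may each report both genes and their values are uncertain. HSPH1, a nucleotide exchange factor of HSP70, had 0.26, 0.25 and 0.18 (mean 0.23 ± 0.04), and its second probe gave 0.35, -0.26 and -0.03.

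HSPA8, the constitutive HSP70 of the cytosol, was high with 1 hairpin only. Its values were 0.04, 0.62 and -0.06 (mean 0.20 ± 0.37), so hairpin 2 stood more than 0.5 above the others. HSPA9, the mitochondrial HSP70, was highest with the same hairpin, at 0.20, 0.35 and -0.01. The remaining 3 genes of this family were HSPA4, an HSP110 protein (0.13), its relative HSPA4L (-0.05) and HSPA14, an HSP70 protein associated with ribosomes (-0.08). The other kept probe of HSPA4 had a mean of -0.16. Over the 8 genes the median of the means was 0.04 with loess and 0.08 with the Feature Extraction log ratios, and it was -0.02 against the median of all genes when arrays were centred on their median, so no direction is given for the family.

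The J-domain proteins, which hand clients to HSP70 and start its ATP cycle, were all within 0.25 of 0. DNAJA1 was the highest of 5, with 0.08, 0.29 and 0.06 (mean 0.14 ± 0.13, SD, n = 3 arrays), again with hairpin 2 on top. DNAJA2 had a mean of 0.13 ± 0.02, the tightest of the family. DNAJA4 was the lowest, with 0.02, 0.06 and -0.25 (mean -0.06 ± 0.17), where only hairpin 3 lay below 0. DNAJB1, a partner of HSP70 that heat induces, had a mean of 0.03 ± 0.03, and the 3 probes of DNAJB6, which cover transcripts NM_005494 and NM_058246, each had a mean of -0.05.

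The co-chaperones held the lowest member of the list. PTGES3, the p23 protein that stabilizes the closed state of HSP90 on its clients, had log2 ratios of -0.36, -0.51 and -0.55 (mean -0.47 ± 0.10, SD, n = 3 arrays), below 0 with each hairpin, and only 5 of the 500 genes nearest to it in brightness were lower. PTGES3 was read by 1 probe only, whose annotated place in hg19 spans 9 bases. CDC37, which brings kinases to HSP90, had 0.15, 0.23 and 0.21 (mean 0.20 ± 0.04). These were opposite ends of a family whose median was 0.03.

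The hairpins disagreed for other co-chaperones of HSP90. AHSA1, which speeds up the ATPase of HSP90, had -0.07, 0.29 and -0.25 (mean -0.01 ± 0.28), so it was higher with hairpin 2 and lower with hairpin 3. It was printed as 10 spots on each array, and their SD within an array was 0.04, 0.05 and 0.06, which covers the error of spots only and not that of cultures or labelling. CHORDC1 had 0.35, -0.16 and -0.14 (mean 0.02 ± 0.29), high with hairpin 1 alone, and its second probe, at 0.09, -0.07 and -0.09, was also above 0 with hairpin 1 alone. STIP1, which links HSP70 to HSP90, had a mean of 0.03 ± 0.03 from its brightest probe. Its other probe gave -0.12, -0.10 and -0.08 (mean -0.10), below 0 with each hairpin. FKBP4, an immunophilin of steroid receptor complexes, had a mean of 0.07 from its brightest probe and -0.26 from its other probe.

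The small heat shock proteins and BAG3 lay at or below 0 by the probes that stood for them. HSPB1 (HSP27), which holds unfolded proteins without ATP, had -0.12, -0.24 and -0.33 (mean -0.23 ± 0.10, SD, n = 3 arrays). It was read at base 733 of NM_001540. A second probe, at base 832, gave 0.13, 0.25 and 0.17 (mean 0.18), and another, at base 49, gave 0.12, -0.17 and -0.17 (mean -0.08), so no direction is given for HSPB1. BAG3, a co-chaperone of HSP70 that pairs with HSPB8, had -0.07, 0.04 and -0.05 (mean -0.03 ± 0.06). HSF1 itself had -0.15, -0.03 and -0.21 (mean -0.13 ± 0.09), and its other kept probe gave -0.36, -0.33 and -0.44, both below 0 with each hairpin.

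Probes of the same gene often differed by as much as the genes did. The 34 genes were read by 51 kept probes, 14 of them by more than 1 and 20 by a single probe. In 7 of the 14 the means of the kept probes fell on both sides of 0. The gap was over 0.5 in 1 gene, HSP90AA1 (0.66), and next largest in HSPB1 (0.41), FKBP4 (0.33) and HSP90AB1 (0.31). In CCT3 and DNAJB6 it was 0.01 or less. The median SD between hairpins was 0.10 for the chaperone genes, beside 0.09 for all genes.

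Both genes of the mitochondrial chaperonin were higher with loess, with little spread between hairpins. HSPE1 (HSP10), the lid of the barrel, had log2 ratios of 0.46, 0.41 and 0.49 (mean 0.45 ± 0.04, SD, n = 3 arrays). HSPD1 (HSP60), the barrel, had 0.33, 0.37 and 0.31 (mean 0.34 ± 0.03). The 2 genes are transcribed away from each other, with 104 bases between their starts on chromosome 2 (GRCh38.p14, positions 197500274 and 197500379). HSPE1 was also read by a probe of an alternative transcript that shares 31 bases with the main one, and this gave 0.31, 0.12 and 0.26 (mean 0.23).

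These values were tied to brightness. HSPD1 and HSPE1 were brighter than 99.5% and 99.3% of the genes tested, and with loess the brightest genes as a whole lay above 0: the median of the 853 genes in the brightest 5% was 0.13, with 30.2% called higher and 4.81% called lower. HSPD1 was 0.13 above the median of its 500 neighbors and higher than 360 of them, but against the nearest 200 it differed by less than 0.01 in size and was above 97. HSPE1 was 0.25 above its 500 neighbors and higher than 441 of them, and 0.15 above the nearest 200 and higher than 168. With the Feature Extraction log ratios HSPE1 had a mean of 0.18 ± 0.06 and HSPD1 turned to -0.01 ± 0.08, so the direction of HSPD1 held with loess and not with these ratios.

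**Figure D2:**
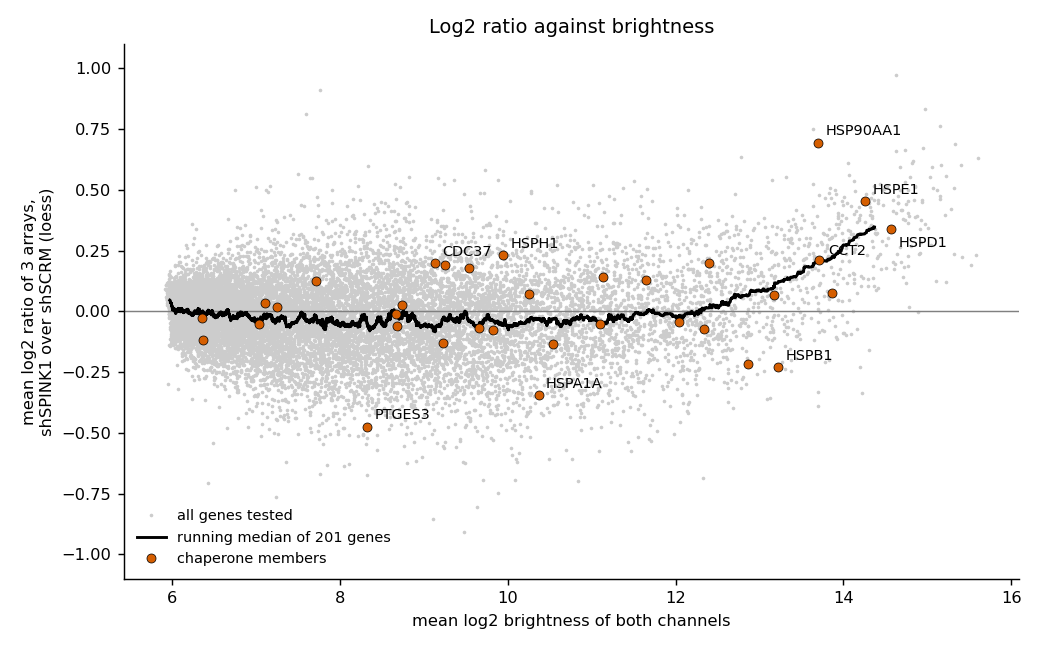
Mean log2 ratio of 3 arrays after loess (y axis) against the mean log2 brightness of both channels (x axis) for all genes tested (grey) and the chaperone genes (orange), with 2 genes beyond 1.1 not drawn. The running median of 201 genes (black line) stays near 0 up to a log2 brightness of about 12 and climbs beyond it, where HSPD1 and CCT2 lie close to the line and HSP90AA1 well above it.

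By its brightest probe, HSP90AA1 was above genes of its brightness whether the nearest 500 or 200 were taken. It was brighter than 98.5% of genes, and the 500 genes nearest in brightness had a median of 0.17, which left a difference of 0.52. It was higher than 498 of these 500 genes, and than 199 of the nearest 200. By Feature Extraction its values were 0.26, 0.67 and 0.42, a mean of 0.45 ± 0.21, where the brightest 5% of genes had a median of -0.01. The order of hairpins was the same under both. HSP90AA1 was the gene on which the list was chosen, so these ranks are a description and no evidence. Its dimmest probe gave 0.18, -0.12 and 0.03, a mean of 0.03.

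Over all members the comparison with genes of equal brightness left nothing in one direction: 17 of 34 were above the median of their 500 neighbors and 17 below, with a median difference of -0.01. The chaperone genes were bright as a group, with a median at the 84.4th percentile of brightness and 10 of 34 in the brightest 5%. Those 10 had a median of 0.14 with loess and -0.01 with Feature Extraction, while the other 24 had -0.02 and 0.01. At the lower end PTGES3, HSPB1 and HSPA1A differed from the median of their neighbors by -0.42, -0.33 and -0.31. The probe that stood for HSPB1 was brighter than 97.8% of genes. Its difference from genes of its own brightness was larger in size than its mean of -0.23. Another HSPB1 probe, nearly as bright, had a mean of 0.18, so no direction is given for the gene here either.

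**Figure D3:**
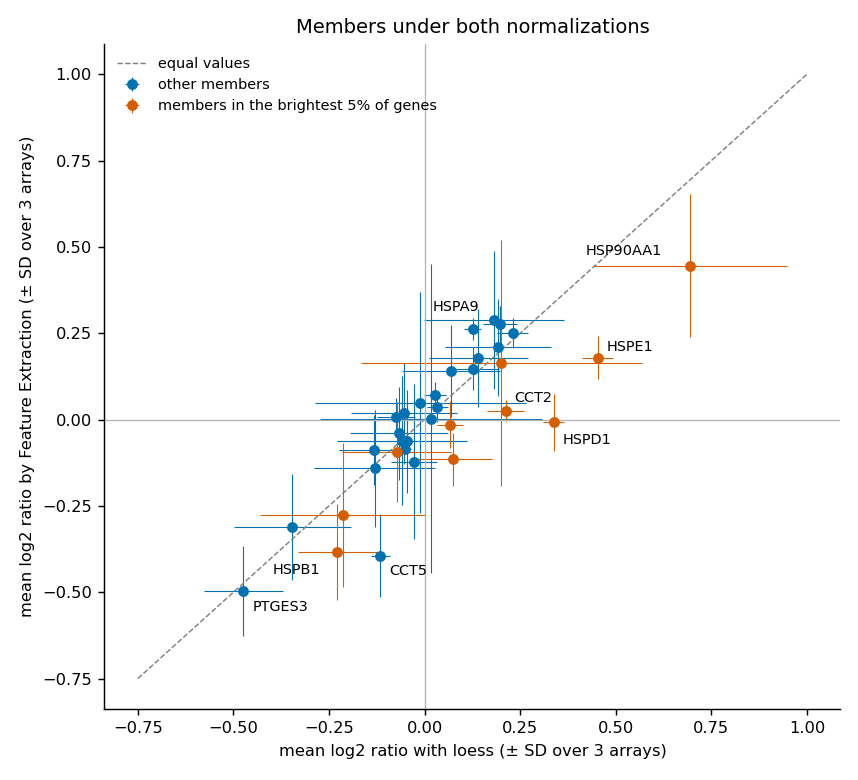
Mean log2 ratio by Feature Extraction (y axis) against the mean after loess (x axis) for the 34 measured chaperone genes, with SD over 3 arrays as bars and members in the brightest 5% of genes in orange. Most members lie along the dashed line of equal values, while HSP90AA1, HSPE1, HSPD1, CCT2, CCT4 and CCT5 fall farthest below it, HSPD1 from 0.34 to -0.01 and CCT5 from -0.12 to -0.39. CCT5 was read by 1 dim probe.

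TRiC, which folds actin and tubulin among others, showed small values on both sides of 0. CCT2 was the highest of the 7 subunits on the list, with 0.16, 0.26 and 0.22 (mean 0.21 ± 0.05, SD, n = 3 arrays), and its 10 spots per array had an SD of 0.02 to 0.04. It was brighter than 98.6% of genes and only 0.04 above its 500 neighbors in brightness, and its Feature Extraction mean was 0.03. CCT5 was the lowest, with -0.12, -0.14 and -0.09 (mean -0.12 ± 0.02), and its Feature Extraction mean was -0.39. It was read by 1 dim probe, brighter than only 23.5% of genes, with Cy5 signals of 33.6 to 38.4. TCP1 had a mean of 0.19 from its brightest probe and 0.02 from the other, whose hairpins ran from -0.33 to 0.44. The family median was 0.07 with loess, -0.06 with Feature Extraction and -0.01 against all genes with median centring, so no direction is given for the complex.

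The sign of the mean with Feature Extraction was that with loess in 28 of 34 members and in 8 of the 9 called members, HSPD1 being the exception. Centring each array on its median in place of loess shifted the median of all genes from -0.01 to -0.23. Read against that shift, 14 of 34 members were above the median of all genes, beside 19 with loess and 17 with Feature Extraction. The difference from it was 0.61 for HSP90AA1, 0.38 for HSPE1 and 0.27 for HSPD1. It was -0.57 for PTGES3, -0.47 for HSPA1A and -0.32 for the brightest probe of HSPB1.

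Other genes of the folding machinery were read from a list of 88 that was set by family, of which 80 were measured. Their median was -0.02, and no direction was shared: 6 were called higher at an adjusted p under 0.05 by limma over all genes and 9 lower, which is 7.5% and 11.2% of those measured, beside the 4.77% and 8.7% of all genes. Without hairpin 3 these counts were 0 and 3. None had a mean beyond 0.5, called or not. The highest were YME1L1, a protease of the inner mitochondrial membrane, with 0.30, 0.38 and 0.33 (mean 0.34), CLPB, a mitochondrial disaggregase, with 0.29, 0.54 and 0.15 (mean 0.33), and the ubiquitin gene UBB, with 0.34, 0.35 and 0.26 (mean 0.32).

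At the other end were HSBP1, which binds HSF1, with -0.35, -0.41 and -0.27 (mean -0.34), FKBP5, an immunophilin that the androgen receptor induces, with -0.51, -0.45 and -0.05 (mean -0.34), and DNAJA3, a mitochondrial J-domain protein, with -0.12, -0.52 and -0.36 (mean -0.33). UBB was brighter than 99.9% of genes and had a Feature Extraction mean of 0.08, whereas YME1L1 and CLPB had 0.43 and 0.48. HSPA6, an HSP70 gene that is silent without stress in most cells and the only one of 69 with a promoter entry on this list to hold the element of 3 units, was not measured: neither of its 2 probes was well above background in Cy5 on any array, and in Cy3 on at most 1. CRYAB, a small heat shock protein, was well above background on 2 of 3 arrays and was not measured either.

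**Figure D4:**
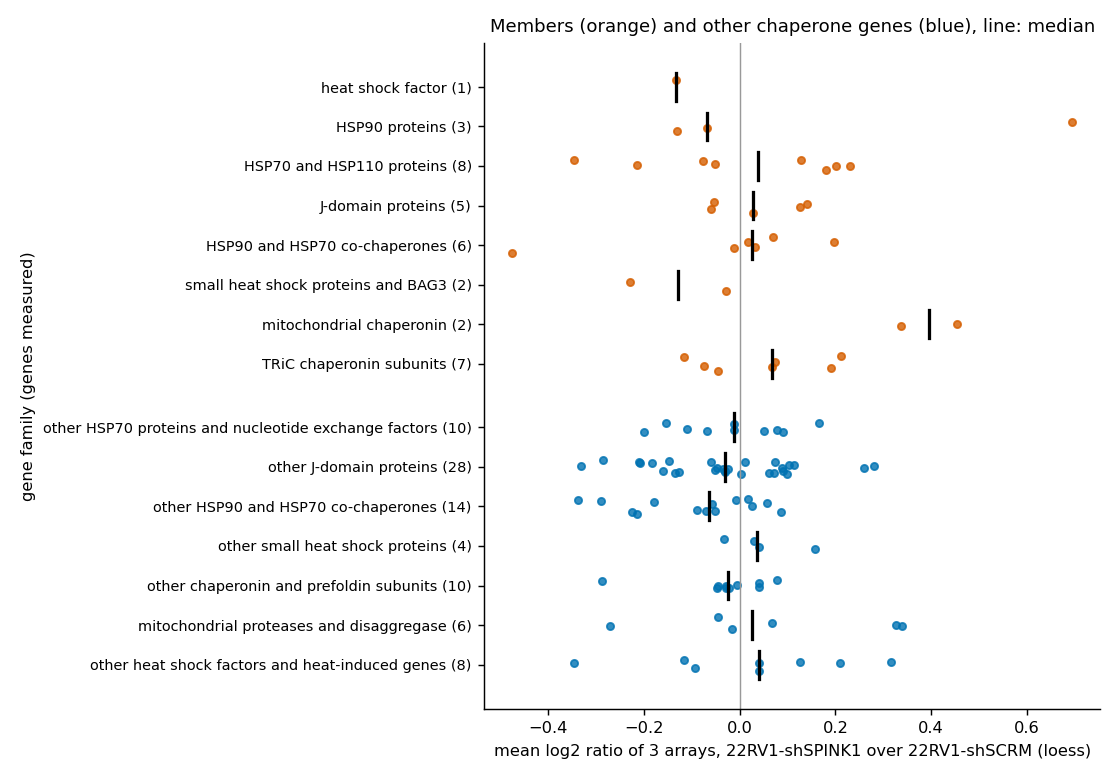
Mean log2 ratio of 3 arrays after loess (x axis) by chaperone family (y axis, with the number of genes measured), the members in orange and the 80 other chaperone genes in blue, each point a gene and each line the median of its family. Family medians lie between -0.13 and 0.07 except for the mitochondrial chaperonin at 0.39, and HSP90AA1 is the only gene beyond 0.5.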

How the data were processed

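Total RNA of 22RV1-shSPINK1 (Cy5) and 22RV1-shSCRM (Cy3) cells, tailed with poly(A) before labelling, was hybridized to 3 two-color Agilent arrays, 1 per hairpin. Per array, the authors deposited a scanner file that holds the intensity and local background of every spot in both channels, not normalized, and a log10 ratio of Cy5 over Cy3 made by Feature Extraction after its own correction of background and dye. The deposited table holds 1 log2 value for each of 43307 gene names, and 98.6% to 98.7% of its values were within 0.02 of the log2 ratio of that array's processed signals (the mean over the spots of a gene, or 1 spot). Its medians were -0.12, -0.17 and -0.20, so it is not centred on 0. The methods state Lowess normalization and Benjamini-Hochberg correction at a false discovery rate under 0.05, and do not say which test gave the p-values of the arrays.

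Here R 4.3.3 and limma 3.58.1 were used: normexp with an offset of 50, loess within arrays, outlier spots set aside, spots of a probe averaged, probes well above background in Cy5 or in Cy3 on all 3 arrays kept (21443 of 58201), and the brightest kept probe taken per gene. The mean of 3 arrays against 0 was tested with limma over 17061 genes, with Benjamini-Hochberg adjustment. This fit was checked on simulated data. The offset draws dim genes toward 0, and the number of arrays limits the precision. Brightness neighbors were the 500 genes nearest in mean log2 brightness of both channels.

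Members and lists were chosen with earlier results of these data known. Every member was named or counted; values by hairpin were given for called members, for the highest and lowest of each role, and where hairpins or probes differed by over 0.5. Alternatives covered background correction, normalization, source of values, filter, probe rule, the number of neighbors and each array left out.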

Additional observations from a re-analysis of the deposited data

How the results depend on the processing

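Each array held shSPINK1 and shSCRM RNA together, so the pairing of the 2 is within each ratio, and no further pairing was fitted. All arrays shared 1 slide and scan, so no batch was fitted. SPINK1 kept its direction and its call under every alternative, from -4.09 with median centring to -3.68 without hairpin 3. The median difference of the chaperone genes from genes of equal brightness moved by less than its SD between hairpins under every alternative, the 200 and 1000 nearest genes included. Leaving out 1 array gave 175 to 1249 genes called higher and 290 to 1938 lower, 47 to 129 higher and 69 to 96 lower beyond 0.5, 2 to 6 chaperone genes higher and 1 to 3 lower, with a median of 0.0076 to 0.056, and 0 to 7 other chaperone genes higher and 1 to 12 lower, with a median of -0.031 to -0.0072. Of the 9 called chaperone genes, 9, 4 and 3 were called again without hairpins 1, 2 and 3, and all kept their sign. On the deposited table and on the Feature Extraction ratios alike, limma called 0 genes higher and 3 lower, also beyond 0.5, and 0 chaperone genes, while 3837 and 4092 genes, 7 and 9 of the 34 among them, had an unadjusted p under 0.05. HSPD1 was -0.01 and -0.0084. The median of the other chaperone genes was then 0.005 and 0.013, and that of the chaperone genes -0.01 in the table. Median centring called 91 genes higher and 10332 lower (2 and 1963 beyond 0.5), 1 chaperone gene higher and 24 lower, with a median of -0.24, and 0 and 61 other chaperone genes, with a median of -0.31; there the median of all genes was -0.23. The mean of kept probes gave a median of -0.013 for the chaperone genes and 33 genes higher beyond 0.5. Without background correction 5 other chaperone genes were lower, with a median of -0.0026. Of 340 values of single members under the alternatives, 280 moved by less than the SD between hairpins and 2, both of HSPD1, changed the sign of a called gene, with signs under median centring read against the median of all genes; read against 0 there, HSPH1 (-0.12), CDC37 (-0.15) and CCT2 (-0.10) were below it as well. The cause was not tested.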
